A study of Mus musculus with 3 samples.

Results

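Methylation at CCGG sites was examined in and around 9 genes of the neural lineage: Pax6, Sox1, Neurog1, Neurog2, Neurod1, Olig2, Nes, Tubb3 and Map2. A site was taken when it lay in 1 of these genes, or within 10 kb of it, and had at least 5 reads in any of 3 MethylRAD lists. This gave 388 of the 1026125 CCGG sites listed in the genome. The 9 loci hold 618 CCGG motifs in the reference sequence (GRCm38), and 8 of the 388 sites are not CCGG in that reference. The cells were E14Tg2A, an established mouse embryonic stem cell (ESC) line. The undifferentiated library came from cells kept with leukemia inhibitory factor (LIF, day 0). The untreated library came from cells differentiated until day 7 by LIF withdrawal and retinoic acid. For the treated library, cells given 3 mM pargyline, an inhibitor of the histone demethylase LSD1, were differentiated in the same way and likewise taken on day 7. The inhibitor was added before differentiation began. Each condition had 1 library, so no difference could be set against a spread between replicates, and no test was made. In MethylRAD, the enzyme FspEI cuts near methylated cytosines, so the reads at a site increase with its methylation, and sites under 5 reads are left out of the lists. Both day 7 libraries were compared with the same undifferentiated library.

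The 9 genes mark successive steps from neural progenitor to neuron. Pax6 and Sox1 are transcription factors of neural progenitors, Neurog1, Neurog2 and Neurod1 are proneural basic helix-loop-helix factors that start neuronal differentiation, and Olig2 specifies motor neuron progenitors and oligodendrocytes. Nes encodes the intermediate filament protein nestin of progenitors, whereas Tubb3 (neuron-specific tubulin) and Map2 (a microtubule-associated protein) belong to the cytoskeleton of neurons. CpG-rich promoters of such developmental regulators are commonly kept free of DNA methylation and silenced by Polycomb in ESCs. RNA was not measured in these libraries, so nothing is said on expression.

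The undifferentiated list held 31614085 CCGG reads, the untreated list 36654600 and the treated list 25767119. The 9 loci took 6680, 7865 and 7295 of these reads, with a median of 18, 19 and 16 reads per listed site. Undifferentiated cells had 241 of the 388 sites listed, untreated cells 262 and treated cells 341, and 198 were listed in all 3. The treated library thus had the most listed sites of the 3 in these loci although it had the fewest CCGG reads. Over the whole genome it listed 892366 CCGG sites, against 870345 in the undifferentiated and 882955 in the untreated library. The 95% intervals below hold the error of counting and nothing else, and PCR duplicates could not be told apart here.

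Pargyline-treated cells had more CCGG motifs listed as methylated in the promoters and upstream flanks of these genes than the cells of either other library. In promoters (within 1 kb of a start site), 15.2% of 138 motifs were listed in the undifferentiated library (Wilson interval 10.2 to 22.1%). The share was 24.6% (18.2 to 32.4%) in the untreated and 39.1% (31.4 to 47.5%) in the treated library. Cutoffs were also set in proportion to CCGG reads and rounded up (7, 8 and 5 reads), which is slightly stricter for the other lists than for the treated one. Cutoffs by mapped reads, which were fewest in the undifferentiated library, were not tried. With cutoffs of 7, 8 and 5 reads, the promoter shares were 12.3%, 13.04% and 39.1%, so the untreated share was then near the undifferentiated one. With a cutoff of 10 reads in each list they were 7.97%, 10.1% and 18.1%, and without Pax6 and Map2 they were 8.89%, 23.3% and 30.0%. In promoters of all 21938 protein-coding genes, the shares were 16.0%, 21.7% and 25.5%. In the 10 kb upstream, 44.7% and 46.8% of 141 motifs were listed in the undifferentiated and untreated libraries and 72.3% in the treated library, whereas upstream flanks of all genes had 56.3%, 57.6% and 59.0%. In gene bodies, the shares were 39.0%, 41.3% and 49.3% of 213 motifs, below the 66.5%, 67.0% and 66.9% of all genes. Downstream flanks differed least, with 56.3%, 54.0% and 59.5% of 126 motifs listed.

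The reads were then summed by region and scaled to the CCGG reads of each library, with a site missing from a list entered at 4 reads, the most it could have had. All ratios below are of such filled sums, whereas reads and scaled reads are given without filling, so ratios can differ from the quotient of the values printed beside them. In promoters, the scaled reads of the treated library were above the untreated ones with a log2 ratio of 0.93 (0.78 to 1.09), and above the undifferentiated ones with 0.81 (0.66 to 0.96). For untreated over undifferentiated cells, the interval included 0, at -0.13 (-0.29 to 0.04). The same promoter ratios over all protein-coding genes were 0.17, 0.24 and 0.07. Upstream, the log2 ratio was 0.64 (0.55 to 0.74) for treated over untreated and 0.65 (0.56 to 0.75) for treated over undifferentiated, and in bodies it was 0.22 (0.14 to 0.29) and 0.26 (0.18 to 0.34), of which the latter upstream value and both body values are negative per mapped read. Downstream it was 0.10 (0.02 to 0.19) and 0.05 (-0.03 to 0.14), both negative per mapped read.

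These directions depend on the scale. Of all mapped reads, 62.04% were at CCGG sites before differentiation, 49.7% on day 7 without pargyline and 38.3% with it. Scaling to mapped reads instead adds -0.32 to each log2 ratio of untreated over undifferentiated, -0.69 to treated over undifferentiated and -0.38 to treated over untreated. On that scale, promoters had log2 ratios of 0.56 (0.41 to 0.71) for treated over untreated and 0.11 for treated over undifferentiated, where the interval included 0 (-0.04 to 0.27). The ratios turned negative upstream for treated over undifferentiated (-0.04), and in bodies for both pairs (-0.44 and -0.16). The distance to all protein-coding genes does not depend on this choice. In promoters the 9 genes lay above all genes by 0.57 for treated over undifferentiated and 0.77 for treated over untreated, and upstream by 0.67 and 0.62. In the following, a positive log2 ratio below 0.69 for treated over undifferentiated, or below 0.38 for treated over untreated, is negative per mapped read.

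Counted site by site, 149 of 367 sites (40.6%) were at least 2-fold higher and 39 (10.6%) at least 2-fold lower in treated than in undifferentiated cells. Over all CCGG sites, 23.7% were higher and 17.8% lower by this rule. For treated over untreated cells, 136 of 370 sites (36.8%) were higher and 15 (4.05%) lower, against 16.7% and 6.07% of all CCGG sites. Untreated cells were near the background relative to undifferentiated ones, with 45 of 297 sites higher (15.2%) and 54 lower (18.2%), against 16.1% and 19.5% of all sites. Per mapped read, 82 sites were higher and 90 lower in treated than in undifferentiated cells, 90 higher and 31 lower than in untreated cells, and 24 higher and 72 lower in untreated than in undifferentiated cells. Of all CCGG sites on that scale, 10.5% were higher and 35.6% lower, 9.17% and 15.4%, and 9.85% and 26.4%, in the same order. In promoters, 34 of 67 sites (50.7%) were higher and 0 lower in treated than in untreated cells, against 32.2% and 3.95% of CCGG sites in promoters of protein-coding genes. Of these promoter sites, 28 were listed in the treated library alone. Another 13 were listed in the untreated library alone with at most 7 reads, too few for a lower call against 4 entered reads. Fewer CCGG reads in the treated library make higher calls easier, in these and in all promoters, so the split was not interpreted. For treated over undifferentiated cells, 27 of 55 promoter sites (49.1%) were higher and 2 lower, against 37.7% and 8.99%. Between untreated and undifferentiated cells, 3 of 40 promoter sites were higher and 5 lower, where all promoters had 17.3% and 14.7%. A listed site with few reads can pass 2-fold by counting error alone. Among the 176 sites with at least 20 reads in the higher library, 60 (34.1%) were higher and 24 (13.6%) lower in treated than in undifferentiated cells, against 20.7% and 20.7% of all CCGG sites by the same rule. Relative to untreated cells, 43 of 167 (25.7%) were higher and 11 (6.59%) lower, against 9.46% and 6.89%.

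The genes did not move together. After the values had been seen, they were divided into the 6 transcription factor genes (Pax6, Sox1, Neurog1, Neurog2, Neurod1 and Olig2) and the 3 cytoskeletal genes (Nes, Tubb3 and Map2). In the transcription factor promoters, 16.8%, 25.2% and 46.7% of 107 motifs were listed in the 3 libraries, in the same order as before, and upstream 40.9%, 44.9% and 71.7% of 127. The cytoskeletal promoters had 9.68%, 22.6% and 12.9% of 31 motifs listed. With cutoffs in proportion to CCGG reads, the shares were 13.1%, 15.0% and 46.7% in the transcription factor promoters and 9.68%, 6.45% and 12.9% in the cytoskeletal ones. In the whole transcription factor loci, 36.2%, 40.3% and 60.2% of 392 motifs were listed. In the cytoskeletal loci, the shares were 42.5%, 43.4% and 44.2% of 226 motifs. The summed reads of the transcription factor loci had a log2 ratio of treated over untreated of 0.98 (0.82 to 1.15) in promoters, 0.78 (0.64 to 0.92) in bodies and 0.92 (0.81 to 1.03) upstream, but -0.00 (-0.11 to 0.11) downstream. Over undifferentiated cells, the 4 values were 0.998, 0.89, 0.97 and 0.08. Promoters, bodies and upstream flanks of these 6 genes together were therefore higher in the treated library on either scale. For the cytoskeletal genes, treated over untreated gave 0.56 (0.11 to 1.02) in promoters, 0.00 (-0.09 to 0.09) in bodies, -0.40 (-0.62 to -0.19) upstream and 0.25 (0.12 to 0.37) downstream. Per mapped read, the body and downstream values are negative and the promoter interval includes 0. Without filling, these promoters had 2.13 scaled reads in the untreated and 2.52 in the treated library. Treated over undifferentiated gave -0.25 (-0.67 to 0.16), 0.02 (-0.07 to 0.11), -0.49 (-0.71 to -0.27) and 0.03 (-0.10 to 0.15), all negative per mapped read, and the promoter ratio of untreated over undifferentiated was -0.81 (-1.23 to -0.40). For the latter ratio, Map2 alone had -0.98, while the wide intervals of Nes (0.25, -1.20 to 1.76) and Tubb3 (0.11, -2.11 to 2.44) included 0, and both values are negative per mapped read. With promoters of 3 kb the Map2 value was 0.09 (negative per mapped read). Whether the groups of genes differ was not tested.

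Among the progenitor factors, Pax6 (chr2:105668900-105697364, plus strand) has 8 annotated start sites, and its promoter regions together span 6941 bp with 37 CCGG motifs. Of these, 10, 9 and 24 were listed in the undifferentiated, untreated and treated libraries, with 148, 213 and 384 reads, or 4.68, 5.81 and 14.9 scaled reads (per 1000000 CCGG reads). The treated promoters were high, whereas the other libraries differed by less than counting error allows to tell (log2 0.21, -0.06 to 0.48). With absent sites at 4 reads the sums were 204, 273 and 384 reads, and treated cells were 2.31-fold above undifferentiated (log2 1.21, 0.96 to 1.46) and 2.001-fold above untreated cells (log2 1.001, 0.77 to 1.23). In the Pax6 body, 12.4, 15.3 and 24.1 scaled reads gave log2 0.62 (0.45 to 0.78) for treated over untreated and 0.24 (0.06 to 0.42) for untreated over undifferentiated, the latter negative per mapped read. The downstream flank went the other way, with 9.27, 13.3 and 9.55 scaled reads. It was highest in the untreated library, and treated over untreated had a log2 ratio of -0.48 (-0.71 to -0.26). Of the 24 promoter sites of Pax6, 14 were listed in the treated library alone, and 3 lie in the promoter of the antisense transcript Pax6os1, whose reads cannot be told apart from those of Pax6. The site with the largest promoter gain from undifferentiated to untreated cells was at -196 bp from the first Pax6 start site (chr2:105668704-105668707). It had 5, 32 and 27 reads and was 5.52-fold higher in untreated than in undifferentiated cells (2.13 to 18.1). The 3 promoter sites with the most reads lay in introns at chr2:105671563-105671566, chr2:105671759-105671762 and chr2:105671769-105671772. They had 29, 17 and 35 reads, 21, 34 and 30 reads, and 21, 35 and 30 reads, and the last pair is 10 bp apart and can share fragments.

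Sox1 (chr8:12395295-12400126, plus strand) has 1 annotated start site, and its promoter was nearly bare of methylated motifs in all 3 libraries. Only 1 of 9 promoter motifs was listed in each, at chr8:12394423-12394426, with 7, 8 and 14 reads. Its body had 1 of 23 reference motifs listed in the undifferentiated and in the untreated library but 7 in the treated one. With sites that are not CCGG in the reference, 9 body sites were listed in any library, and 8 of them in the treated library alone, including all 5 in the coding sequence, of which 4 lie in the promoter of Gm25239. The body reads were 48, 24 and 78, and treated over untreated had a log2 ratio of 0.99 (0.47 to 1.51). Untreated over undifferentiated had -0.73 (-1.25 to -0.22), and for treated over undifferentiated the interval included 0 (0.26, -0.21 to 0.73, negative per mapped read). The upstream flank had 4.998, 6.49 and 14.1 scaled reads, and the treated library was highest, with log2 0.93 (0.70 to 1.16) over untreated and 1.19 (0.93 to 1.44) over undifferentiated cells. Of the 23 upstream sites, 8 lie in the promoter of the overlapping transcript Sox1ot, 5 of them listed with pargyline alone, and 8 in the promoter of Gm45560. The site with the most reads was among the latter (chr8:12390017-12390020), with 11, 39 and 63 reads. It stood higher in each day 7 library, 3.06-fold (1.54 to 6.62) in untreated and 7.03-fold (3.67 to 14.8) in treated cells relative to undifferentiated cells.

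The proneural genes are described separately, and differences between them were not tested. In the Neurog1 promoter (gene at chr13:56250478-56252163, minus strand), 2, 9 and 14 of 23 motifs were listed in the 3 libraries. The promoter had 99, 136 and 208 reads, and treated over untreated had a log2 ratio of 0.88 (0.59 to 1.17), whereas untreated over undifferentiated had -0.14 (-0.45 to 0.18). The latter ratio was 0.24 (-0.14 to 0.63) with absent sites at 0 reads. Treated over undifferentiated had 0.74 (0.45 to 1.04), and per mapped read the interval included 0 (0.049, -0.25 to 0.35). With cutoffs in proportion to CCGG reads, 2, 4 and 14 motifs of this promoter were listed. The site at -991 bp from the start site (chr13:56253154-56253157) carried most of the promoter reads in the undifferentiated library, with 85 reads, and had 64 and 76 in the others. Within the coding exon, 7 of 8 listed sites were found in the treated library alone. The strongest of these (chr13:56251447-56251450) had 23 reads there, at least 8.18-fold (2.79 to 32.5) more than in untreated and at least 7.05-fold (2.41 to 28.1) more than in undifferentiated cells, or 6.30-fold and 4.36-fold per mapped read. Here and below, "at least" refers only to the reads of the absent site. The remaining body of Neurog1, which is part of the UTR, had 13, 16 and 72 reads at 2 sites and was 6.40-fold higher in treated than in untreated cells (log2 2.68, 1.88 to 3.56). Downstream, the scaled reads were 8.35, 7.42 and 5.43, lowest in the treated library (log2 -0.41 over untreated, -0.71 to -0.11). The site with the most reads there (chr13:56246797-56246800) had 64, 99 and 18 reads and was 3.87-fold lower in treated than in untreated cells.

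Neurog2 (chr3:127633135-127635631, plus strand) had few reads in its promoter, which has the highest CpG ratio of the 9 (0.860). There, 2, 2 and 4 of 21 motifs were listed, with 16, 10 and 24 reads, or 2, 0 and 4 motifs with cutoffs in proportion to CCGG reads. Its upstream flank had 0.822, 0.573 and 4.15 scaled reads and stood out in the treated library, with log2 1.69 (1.19 to 2.204) over untreated and 1.45 (0.95 to 1.96) over undifferentiated cells. The downstream flank had 6.45, 5.54 and 9.08 scaled reads (log2 0.63 for treated over untreated, 0.36 to 0.90, an interval that includes 0 per mapped read). Neurod1 (chr2:79452521-79456751, minus strand) had the smallest difference between treated and untreated cells of the 6 transcription factor loci (log2 0.30, 0.06 to 0.53, negative per mapped read). Its promoter had 23, 36 and 37 reads at 2, 4 and 3 of 6 motifs, or 1, 2 and 3 with cutoffs in proportion to CCGG reads. There, treated over untreated had a log2 ratio of 0.68 (0.03 to 1.33), with intervals that included 0 per mapped read (0.30, -0.34 to 0.95) and with absent sites at 0 reads (0.55, -0.15 to 1.25). At -111 bp from its start (chr2:79456862-79456865), 5, 16 and 18 reads were listed, and relative to undifferentiated cells the treated library was 4.42-fold higher (1.58 to 15.2), while the interval of the untreated one included 1 (2.76-fold, 0.966 to 9.63). Per mapped read, the interval of the treated library included 1 as well (2.73-fold, 0.976 to 9.40). The site at chr2:79457234-79457237 had 18 reads in the undifferentiated library, was not listed in the untreated one and had 7 in the treated one. The downstream flank of Neurod1 was lower in both day 7 libraries, with 71, 27 and 22 reads at 2 motifs (log2 -1.41 for untreated and -1.40 for treated over undifferentiated).

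Olig2 (chr16:91225457-91228677, plus strand) had the largest differences among the summed upstream flanks and promoters. Its promoter had 5, 10 and 49 reads, at 1, 2 and 4 of 11 motifs, or 0, 0 and 4 with cutoffs in proportion to CCGG reads. Its body had 0, 0 and 51 reads. All 6 body sites were listed in the treated library alone, 4 of them in the coding exon and 2 in the UTR. The upstream flank had 74, 108 and 399 reads at 8, 11 and 19 of 23 motifs. In scaled reads this was 2.34, 2.95 and 15.5, and the treated library was the highest. With absent sites at 4 reads the sums were 126, 148 and 407 reads, and the interval of untreated over undifferentiated included 0 (log2 0.02, -0.33 to 0.37). Treated over untreated was 3.91-fold in the upstream flank (log2 1.97, 1.69 to 2.25) and 3.87-fold in the promoter (log2 1.95, 1.15 to 2.82). The downstream flank, with 13.8, 14.4 and 15.8 scaled reads, showed no such difference (log2 0.13, -0.06 to 0.32). Of the 21 upstream sites, 14 lie in the promoter of Gm49614. The upstream site with the most reads in the treated library (chr16:91223332-91223335) was among them, with 13, 12 and 48 reads and a 5.69-fold higher value in treated than in untreated cells (2.98 to 11.8). In the promoter, the intronic sites chr16:91225927-91225930 and chr16:91226009-91226012 were unlisted in undifferentiated cells, had 5 reads each in untreated cells and had 15 and 20 in treated cells.

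The sequences around 4 of these sites are given below, since they show the kinds of surroundings in which reads differed between libraries. They were read from the RefSeq genome of GRCm38, on the plus strand, with the CCGG motif in capitals and 13 bases on each side. The Pax6 and Neurog1 sites lie in an intermediate and a high CpG window, respectively, the Sox1 site in a low CpG window and the Olig2 site in an intermediate one.
Pax6 promoter, chr2:105668704-105668707: gcgtgtgcagttaCCGGccagacccctgaa
Sox1 upstream, chr8:12390017-12390020: catctgtcagatgCCGGgtagagccccgat
Neurog1 coding exon, chr13:56251447-56251450: gcaggaggcgctcCCGGgcactgcccccgg
Olig2 upstream, chr16:91223332-91223335: gcgctcttgccttCCGGctccttttccagg

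Listed motifs differed less between libraries in the cytoskeletal genes, with 28, 30 and 33 of 52 in Nes, 21, 21 and 20 of 64 in Tubb3 and 47 in each library of 110 in Map2. In the Nes promoter (gene at chr3:87971078-87980451, plus strand), none of 15 motifs was listed in the undifferentiated library, 2 in the untreated and 1 in the treated one, with 11 and 12 reads in the latter 2. With cutoffs in proportion to CCGG reads, 0, 0 and 1 of these motifs were listed. The Nes body had 7.72, 11.3 and 12.2 scaled reads, so that both day 7 libraries were higher than the undifferentiated one, with log2 0.51 (0.28 to 0.74) for untreated and 0.62 (0.37 to 0.86) for treated cells. Per mapped read, the untreated interval includes 0 and the treated value is negative. An intronic site (chr3:87973879-87973882) had 13, 64 and 43 reads and was 4.25-fold higher in untreated than in undifferentiated cells (2.32 to 8.40). Upstream of Nes, a site at chr3:87964965-87964968 was high in the untreated library alone, with 22, 82 and 31 reads. Downstream, the site with the most reads of this locus (chr3:87981350-87981353) had 62, 158 and 109 reads, and chr3:87983359-87983362 was listed only in the treated library, with 36 reads, at least 12.8-fold (4.59 to 49.5) above untreated cells, or 9.87-fold per mapped read.

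Tubb3 (chr8:123411424-123422015, plus strand) was lower in treated cells in its body and upstream flank. Its promoter had 1 of 5 motifs listed, with 5 reads in the untreated library alone, and 0 in each library with cutoffs in proportion to CCGG reads. Its body had 11.2, 10.2 and 6.83 scaled reads and its upstream flank 10.1, 7.83 and 6.21. The treated library was lowest in both, with log2 -0.55 (-0.81 to -0.29) over untreated cells in the body and -0.36 (-0.64 to -0.08) upstream, on either scale. The downstream flank had 8.60, 7.83 and 8.38 scaled reads, and the interval of treated over untreated included 0 (log2 0.12, -0.14 to 0.38, negative per mapped read). The intronic site with the most reads (chr8:123417880-123417883) had 101, 155 and 67 reads. All 24 listed sites of Tubb3 also lie in the overlapping gene Gm20388. In Map2 (chr1:66175273-66442583, plus strand), the body had 45.3, 44.0 and 46.1 scaled reads at 42, 41 and 42 of 97 motifs. Scaled to CCGG reads, its 3 libraries were within 0.08 of each other on the log2 scale, whereas per mapped read the ratios of all 3 pairs are negative. The Map2 promoters, with 7 start sites and the lowest CpG ratio of the 9 (0.382), had 100, 62 and 53 reads. They were lower in untreated than in undifferentiated cells (log2 -0.98, -1.44 to -0.52), and the intronic site chr1:66320977-66320980 held 55 of these reads in the undifferentiated library, was not listed in the untreated one and had 7 in the treated one. Inside the Map2 body, chr1:66295199-66295202 was not listed in undifferentiated cells and had 21 reads in untreated and 65 in treated cells, at least 19.9-fold (7.42 to 75.4) above undifferentiated cells in the latter, or 12.3-fold per mapped read. Downstream of Map2, 169, 101 and 83 reads at 2 motifs were lowest in the day 7 libraries (log2 -0.96 and -0.73).

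Sequences of 4 sites of the cytoskeletal genes are printed for comparison, all of them in low CpG windows, with the same use of capitals. They include the largest ratio in these genes for treated over untreated cells (Nes downstream), for treated over undifferentiated cells (Map2 intron), and the lowest for untreated over undifferentiated cells (Map2 promoter).
Nes intron, chr3:87973879-87973882: gtcagaagaggtcCCGGctggagtcccact
Nes downstream, chr3:87983359-87983362: tggggaaaccaacCCGGgattcattcattg
Map2 intron, chr1:66295199-66295202: gctctatcccctaCCGGtatttttttctgt
Map2 promoter, chr1:66320977-66320980: ttgctttttgtttCCGGtaaccatggtgat

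Sites listed in the treated library alone were 30 of 38 listed sites in windows of high, 45 of 138 of intermediate and 16 of 212 (7.55%) of low CpG content. In 500 bp windows of high CpG content (CpG ratio above 0.75 and GC content above 55%), 5, 7 and 34 of 117 motifs of the 9 loci were listed, or 4.27% (1.84 to 9.62%), 5.98% (2.93 to 11.8%) and 29.1% (21.6 to 37.8%). The median of these listed motifs was 6, 5 and 6 reads, at or near the cutoff of 5. High windows of the whole genome had 3.22%, 9.18% and 11.4%. The intervals take motifs as separate draws, although neighbouring motifs share loci and can share fragments. They were therefore not set against the genome shares, and no difference was tested. In intermediate windows, 29.7%, 36.1% and 56.6% of 219 motifs were listed, against 23.5%, 27.4% and 30.9% in the genome. In low windows (CpG ratio below 0.48), the shares were 59.6%, 60.3% and 63.1% of 282 motifs, close to the 60.4%, 60.2% and 60.1% of the genome. All 34 motifs listed in high windows of the treated library lie in the transcription factor loci, which hold 105 of the 117 motifs, while 0 of the 12 in the cytoskeletal loci were listed. In Sox1, 0, 0 and 9 of 33 high motifs were listed, in Neurog1 1, 1 and 10 of 17, in Neurog2 3, 3 and 5 of 27 and in Neurod1 1, 3 and 2 of 7. Differences between the genes were not tested.

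Sites listed in the treated library alone made up 91 of the 388 (23.5%), against 5.66% of all CCGG sites. The 9 loci hold a larger part of their motifs in high and intermediate CpG windows than the genome does. The genome share was not split by window, so the 2 shares are of sets unlike in CpG content. By gene, sites listed in the treated library alone numbered 25 of 87 in Pax6, 17 of 41 in Sox1, 15 of 40 in Neurog1, 11 of 30 in Neurog2, 4 of 20 in Neurod1 and 15 of 49 in Olig2. In Nes, Tubb3 and Map2 they were 2 of 36, 1 of 24 and 1 of 61. Of the coding exon sites of the 9 genes, 19 of 43 (44.2%) were listed with pargyline only, against 6.36% of those of all protein-coding genes. All 19 were among the 30 in the transcription factor loci, and 0 of 13 in the cytoskeletal loci were treated-only. Coding exon sites within 1 kb of a start site, such as chr13:56251447-56251450 in Neurog1, are also counted among the promoter sites above. In the transcription factor loci, 63 of the 87 treated-only sites lay within 5000 bp of a start site of the gene, as did 156 of all 267 listed sites. Most had few reads. Their median was 8 reads, and 35 of the 91 (38.5%) had at least 10 reads and 10 (11.0%) at least 20, against 28.6% and 3.82% of treated-only sites in the genome. How close these sites were to the cutoff of 5 reads in the other libraries cannot be told from the lists. Among the treated-only sites, 25 lie within 28 bp of another listed site and can share its fragments, and 18 lie in the promoter of another gene. Sites listed in the undifferentiated library alone were 18 of 388 (4.64%, against 5.31% of all CCGG sites), and in the untreated library alone 21 (5.41%, against 3.07%), of which 13 were in promoters, with at most 7 reads.

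A list of 48 other neural genes, in 3 groups, was examined at promoters in the same way. Of their 643 promoter motifs, 9.18%, 15.9% and 29.4% were listed in the undifferentiated, untreated and treated libraries. The log2 ratio of their summed promoter reads was 0.98 (0.89 to 1.07) for treated over untreated and 0.95 (0.86 to 1.04) for treated over undifferentiated, and -0.03 (-0.12 to 0.07) for untreated over undifferentiated. Of the genes with at least 20 promoter reads in 1 library of the pair, 22 of 33 were at least 2-fold higher and 0 lower in treated than in untreated cells, against 15.1% and 1.78% of all protein-coding genes. For treated over undifferentiated cells, 23 of 34 were higher and 2 lower (24.5% and 5.76% of all genes), and for untreated over undifferentiated 0 of 19 were higher and 2 lower (8.73% and 7.10%). Per mapped read, 12 of 33 were higher and 0 lower in treated than in untreated cells (6.46% and 5.75% of all genes). Treated over undifferentiated then gave 6 of 34 higher and 2 lower (6.23% and 19.6%), and untreated over undifferentiated 0 of 19 higher and 2 lower (4.28% and 12.8%). Of the 22 and the 23 genes higher in treated cells on the CCGG scale, most had under 20 reads in the other library of the pair. They entered by the rule of 20 reads through the treated library alone, among them Pax3 (7 untreated and 72 treated reads), Pax7 (10 and 100) and Neurog3 (19 and 97). Such entry favours higher calls, in this list and among all genes, so the counts of higher genes were not interpreted. Of the 9 genes, Pax6 and Olig2 were 2-fold higher by this rule for treated cells against each other library, among 6 with enough reads, and per mapped read only Olig2 was. Olig2 (5, 10 and 49 reads) met the rule of 20 reads only through the treated library, as did Neurog2 (16, 10 and 24), which was not 2-fold higher. The Map2 promoters were 2-fold lower per mapped read in treated and in untreated than in undifferentiated cells (log2 -1.18 and -1.30). The progenitor and patterning group had a log2 ratio of 1.23 for treated over untreated cells, the proneural group 0.74 and the neuronal group 0.82. Among the genes with at least 50 promoter reads, the ventral neural tube factors Dbx1 and Nkx2-2 had 48, 111 and 246 and 51, 83 and 207 reads. The neurofilament gene Nefm had 16, 49 and 154, the patterning factor Irx3 11, 20 and 60, and Pax7 0, 10 and 100 reads. All 5 were highest in the treated library. Fabp7, a fatty acid binding protein of radial glia, had 101, 32 and 25 reads and was highest in the undifferentiated one. Nefm, Irx3 and Pax7 reached 50 reads only in the treated library, and Fabp7 only in the undifferentiated one. These genes were also chosen for their large ratios, so the library in which they were highest is no separate result.

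As a check of the labels, promoters of 10 pluripotency genes were read as well, by methylation only. The Pou5f1 promoter had 6, 124 and 83 reads, so that both day 7 libraries were high (log2 2.28 over undifferentiated cells in each), Fgf4 had 0, 53 and 59, Nanog 26, 28 and 13, Esrrb 167, 117 and 200, Tcl1 39, 63 and 11 and Zfp42 7, 15 and 0. By the 2-fold rule, 2 of 6 were higher and 0 lower in untreated than in undifferentiated cells (8.73% and 7.10% of all protein-coding genes). In treated cells, 2 of 5 were higher and 1 lower (24.5% and 5.76%). Per mapped read, untreated cells had 2 of 6 higher and 1 lower (4.28% and 12.8%), and treated cells 2 of 5 higher and 2 lower (6.23% and 19.6%). The 10 promoters together had log2 0.23 for untreated and 0.58 for treated over undifferentiated cells, both negative per mapped read.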

How the data were processed

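MethylRAD libraries of 3 samples, 1 for each condition, were analysed. The authors trimmed adapters, took reads that hold an FspEI site, aligned these to the GRCm38 genome by Bowtie2 2.3.3 and deposited the count of uniquely mapped reads per site, without normalization and from 5 reads on. They also deposited an RPM value, the count relative to all mapped reads, which was used here only as an alternative scale. Genes and start sites came from GENCODE M21 (basic transcripts). Positions within 1 kb of any start site of a gene were its promoter, the rest of the gene its body, and 10 kb on each side its flanks. Counts were scaled to the CCGG reads of each list. A site listed in any library and absent from another was entered at 4 reads. CpG content was taken in 500 bp windows with 5 bp of overlap. Shares have Wilson intervals and ratios of 2 counts have exact conditional (Clopper-Pearson) intervals. No ratio is given where neither library of a pair listed a site. CCAGG and CCTGG sites were not used, because their counts in the untreated list nearly all repeat those of the undifferentiated list. The treated list repeats CCTGG counts too, at 269653 of 269725 sites shared with the undifferentiated and at all 269719 shared with the untreated list.

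All 9 genes were named. Of their sites, the 3 promoter sites with the most reads (all sites when at most 5), the site with the most reads elsewhere, and the largest gains and losses per region with at least 20 reads in the higher library were candidates. Of the other neural genes, the 6 with the largest promoter ratios and at least 50 promoter reads were named. The members and lists were chosen with earlier results of these data known. Further sites named in the text were chosen after their values were seen. Functions were tested on simulated data. Scripts ran in Python 3.11.15 with pandas 2.3.3, numpy 2.4.6 and SciPy 1.17.1. Alternatives changed the scaling, the cutoff, the value of absent sites, the widths of promoters and flanks, the fold and the genes included.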

Additional observations from a re-analysis of the deposited data

Results flagged for a closer look

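The CCAGG sites were not part of the comparisons, because the untreated list repeats nearly all CCAGG counts of the undifferentiated one: 268315 of 268383 shared sites had equal counts. The treated list has its own CCAGG counts, and in the 9 loci it held 250 CCAGG sites, above the 76 of the undifferentiated list, among 849 CCAGG motifs. Per 100 motifs this was 29.4 sites in the treated and 8.95 in the undifferentiated list, against 22.7 and 6.82 over the genome. Tubb3 had 38 CCAGG sites in the treated and 12 in the undifferentiated list, and Nes 38 and 11, whereas listed CCGG motifs were 20 and 21 in Tubb3 and 33 and 28 in Nes. The part of CCAGG sites in the CCGG results was not tested.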

How the results depend on the processing

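Of the main values under other settings, 169 kept their label, 73 moved by more than the interval or the limit set for counts, and 4 ratios whose interval leaves out 0 changed sign. Of the promoter ratios of single genes, 264 kept their label, 22 moved and 2 such ratios changed sign. Other regions of single genes are not in these counts, and some of their ratios also turn negative per mapped read, as given above. Among ratios whose interval includes 0, the sign also changed in 13 of 60 main values and 14 of 173 promoter values for single genes. The cause was not tested. Values below are for treated over undifferentiated (TU), treated over untreated (TN) and untreated over undifferentiated (NU). Of the counted ratios with intervals without 0, signs changed per mapped read in bodies (TU -0.44, TN -0.16), downstream (TN -0.27) and upstream (TU -0.0414), and for the Map2 promoter within 3 kb (TU 0.15, NU 0.0947). Per mapped read, other ratios were body NU -0.28, downstream TU -0.64 and NU -0.37, promoter TU 0.11, TN 0.56 and NU -0.44, and upstream TN 0.27 and NU -0.31. Sites higher were TU 82, TN 90 and NU 24, and lower TU 90 and TN 31. Scaling by the median ratio of shared sites gave body NU -0.0364. Promoters of 3 kb gave body TU 0.11 and NU -0.0355, promoter NU 0.0718, and upstream TU 0.50 and TN 0.47. Promoters of 500 bp gave TN 0.69, NU 0.12 and an undifferentiated share of 9.47%. With 1 kb upstream only, the treated promoter share was 48.5%. Flanks of 5 kb gave downstream TU -0.0439 and upstream TU 0.84, TN 0.94 and NU -0.10. Absent sites at 0 reads gave promoter TU 1.27, TN 1.18 and NU 0.0895, and upstream TU 0.83 and TN 0.77. Sites of at least 10 reads, with others at 9, gave promoter TU 0.65, upstream TU 0.52 and TN 0.51, sites higher TU 86, TN 74 and NU 28, and lower TU 21 and NU 34. Without Pax6 and Map2, downstream TN was 0.20, the undifferentiated share 34.5% of all motifs, promoter shares 30.0% (treated) and 8.89% (undifferentiated), sites higher TU 93, TN 87 and NU 22, and lower TU 23, TN 6 and NU 31. A cutoff of 10 reads gave shares of 29.3%, 30.1% and 39.0% of all motifs and 7.97%, 10.1% and 18.1% in promoters, in the order undifferentiated, untreated and treated. Cutoffs in proportion to CCGG reads, rounded up (7, 8 and 5), gave 34.0% and 34.1% of all motifs in the former 2 and 13.04% of promoter motifs in the untreated library. At 1.5-fold, sites higher were NU 87 and lower TU 64 and TN 32. At 3-fold, higher were TU 90, TN 76 and NU 20, and lower TU 14, TN 2 and NU 26. With at least 20 reads in the higher library, higher were TU 60, TN 43 and NU 29, and lower TU 24 and NU 29. The settings without Pax6 and Map2 and with sites listed in at least 1 library of a pair were chosen after seeing the data. No paired analysis was possible because the labels carry no replicate numbers and each condition had 1 library. A difference between libraries cannot be told apart from a difference between cultures. Methylation levels in percent, other cytosines, RNA and protein were not analysed here.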
